A study of Homo sapiens with 8 samples.

Results

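The 9 genes described here encode or produce regulators of squamous epithelial identity, namely SOX2, TP63, MIR205HG, KLF4, KLF5, ZNF750, GRHL3, TFAP2A and PITX1. They were taken by gene name from the deposited expression tables, in which 34164 genes are listed in all and 26360 in both tables, and each of the 9 genes is listed in both. The cells were Kyse510, an established human line of esophageal squamous cell carcinoma (ESCC), and total RNA gave 1 paired-end library (150-base reads) per condition. In the inhibitor table, cells were grown for 2 days with vehicle (DMSO), with 7 µM SP2509, an inhibitor of the histone demethylase LSD1, with 7 µM UNC0642, an inhibitor of the histone methyltransferase G9a, or with both compounds, for which no separate dose is stated. In the knockdown table, stable lines carried a lentiviral, doxycycline (Dox)-inducible hairpin against LSD1 (shLSD1) or G9a (shG9a), underwent puromycin selection for 14 days, and then received Dox for 2 days or no Dox. Each treated library was set against its own control, which was vehicle for the 3 inhibitor libraries and the uninduced line for each knockdown. The paper names cells with a nonsilencing hairpin as the knockdown control, whereas the labels used here give the uninduced lines, and no library of a nonsilencing hairpin was analysed here. There was likewise no library of cells given Dox without one of these hairpins, so an effect of Dox itself and an effect of the knockdown cannot be told apart. Whether a stable line was 1 clone or a pool of infected cells is not stated.

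In a stratified squamous epithelium, basal cells divide on the basement membrane and hand daughters upward, where they stop dividing and build the barrier. p63, encoded by TP63, is the master regulator of the basal state, and SOX2 is its frequent partner in squamous carcinomas, amplified together with TP63 in many esophageal tumors. MIR205HG is the host transcript of miR-205, a microRNA enriched in basal epithelial cells. KLF4, ZNF750 and GRHL3 drive the later differentiation program, KLF5 acts in proliferating basal cells, and the AP-2α factor TFAP2A and the homeobox factor PITX1 are expressed in ectodermal derivatives, stratified epithelia among them.

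With 1 library per condition there is no replicate error, and no test of conditions was made. Levels are in FPKM, which are fragment counts divided by gene length and library size, and can therefore be compared between genes. Changes are log2 ratios of (FPKM + 1), a scale that understates the change of low genes. A gene was called as risen or fallen when this ratio was at least 1.3 in either direction and the gene reached 1 FPKM in at least 1 of the 2 libraries. Reads were estimated from FPKM, and fold values given with a range are FPKM ratios with an exact 95% interval of the reads. These intervals cover counting error only, since 1 library per condition shows no variation between cultures. They also take reads as independent molecules, which copies made by PCR are not, so they can be too narrow.

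The estimated library totals ran from 15662035 reads with vehicle to 17889466 with UNC0642. As a check of the labels, KDM1A, which encodes LSD1, had 26.0 FPKM in the shLSD1 line without Dox and 6.29 FPKM with it. EHMT2, which encodes G9a, had 7.85 FPKM in the shG9a line without Dox and 4.76 FPKM with it. Of 7 squamous epithelial markers (KRT5, KRT14, KRT6A, KRT17, DSG3, DSC3 and SERPINB5), 6 or 7 reached 1 FPKM in each library, and their summed level ran from 410 FPKM in the shLSD1 line with Dox to 4578 FPKM with SP2509. KRT17 alone made up most of these 2 sums, with 265 and 3716 FPKM. Of 12 columnar or intestinal markers, 0 to 2 reached 1 FPKM and the sum was at most 3.26 FPKM. For 3 immune markers the sum was at most 0.117 FPKM, for 4 fibroblast markers 3.12 to 6.71 FPKM, for 3 endothelial markers 3.56 to 14.5 FPKM, and for 7 mesenchymal markers 7.53 to 74.4 FPKM. VIM, the defining mesenchymal intermediate filament gene, was at most 0.174 FPKM in every library, and most of the mesenchymal sum came from SNAI2, which reached 67.9 FPKM with SP2509. Other markers of that list were present, with SNAI1 at 0.454 FPKM with vehicle and 14.5 FPKM with both inhibitors. CDH2 had 4.53 and 6.01 FPKM in those libraries. The part of these marker levels in the results was not tested.

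The mature miR-205 sequences are shown because the gene that carries them lies inside MIR205HG, which had the lowest change of all genes tested with both inhibitors on the log2 (FPKM + 1) scale. They were taken from RefSeq (GRCh38.p14), and capitals mark the seed, bases 2 to 8, through which a microRNA pairs with its targets. The 2 arms have different seeds.
hsa-miR-205-5p, chr1:209432166-209432187, plus strand: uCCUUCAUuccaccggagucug
hsa-miR-205-3p, chr1:209432203-209432223, plus strand: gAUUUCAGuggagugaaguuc

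Promoter windows from RefSeq (GRCh38.p14; 250 bases before to 50 after the annotated start) were matched for 8 of the 9 genes, in 11 windows since GRHL3, KLF5 and TFAP2A have 2 starts each. The 4 windows printed belong to the genes that, of the 9, had the 2 lowest (MIR205HG and SOX2) and the 2 highest log2 changes of (FPKM + 1) with both inhibitors (KLF4 and GRHL3, the latter at its first start). Capitals mark CACCC or its reverse complement GGGTG, the core of KLF-type sites.
SOX2, chr3:181711675-181711974, plus strand: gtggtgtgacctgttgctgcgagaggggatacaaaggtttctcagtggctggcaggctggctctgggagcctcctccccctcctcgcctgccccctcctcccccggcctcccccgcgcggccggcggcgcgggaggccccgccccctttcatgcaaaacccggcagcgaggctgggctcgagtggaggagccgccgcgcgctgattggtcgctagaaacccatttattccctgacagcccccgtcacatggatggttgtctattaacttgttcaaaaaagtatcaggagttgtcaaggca
MIR205HG, chr1:209428570-209428869, plus strand: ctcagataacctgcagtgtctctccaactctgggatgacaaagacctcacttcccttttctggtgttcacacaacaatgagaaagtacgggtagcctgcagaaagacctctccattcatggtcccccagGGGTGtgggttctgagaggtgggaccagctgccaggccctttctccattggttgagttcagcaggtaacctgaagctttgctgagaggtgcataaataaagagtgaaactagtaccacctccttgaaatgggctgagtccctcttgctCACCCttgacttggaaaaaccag
KLF4, chr9:107489720-107490019, minus strand: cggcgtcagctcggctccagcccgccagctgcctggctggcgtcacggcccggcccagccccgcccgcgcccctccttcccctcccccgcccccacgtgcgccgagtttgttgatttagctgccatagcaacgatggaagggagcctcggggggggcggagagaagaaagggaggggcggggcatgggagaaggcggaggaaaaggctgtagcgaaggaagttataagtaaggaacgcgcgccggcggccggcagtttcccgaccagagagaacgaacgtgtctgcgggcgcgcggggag
GRHL3, chr1:24319107-24319406, plus strand: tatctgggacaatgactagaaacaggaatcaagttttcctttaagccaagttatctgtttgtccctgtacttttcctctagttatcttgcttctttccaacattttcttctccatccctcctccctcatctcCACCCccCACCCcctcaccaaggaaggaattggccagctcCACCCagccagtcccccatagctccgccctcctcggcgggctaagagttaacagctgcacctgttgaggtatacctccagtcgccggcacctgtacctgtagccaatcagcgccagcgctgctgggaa
The core CACCC was found on either strand in 8 of the 11 windows, against 59.9% of 35116 RefSeq windows of the same length. The printed GRHL3 window holds 3 copies, the MIR205HG window holds 2, and the SOX2 and KLF4 windows hold 0. An AP-2 type match (GCCNNNGGC) was found in 3 of the 11 windows against 23.2% of all windows, a GRHL type match (AACCGG) in 2 against 7.23%, a SOX type match (ACAAT) in 5 against 27.4%, and a PITX type match (TAATCC) in 0 against 6.36%. In the 11 windows, 0 matches of one motif overlapped a match of another. These are matches of letters only.

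With SP2509, 2 of the 9 genes rose (TP63 and KLF4) and 2 fell (SOX2 and MIR205HG), where 21.0% of 13342 genes tested rose and 39.9% fell. With UNC0642, 1 gene rose (TFAP2A) and 2 fell (SOX2 and MIR205HG), against 18.2% and 16.9% of 13244 genes. With both inhibitors, 3 genes rose (KLF4, GRHL3 and PITX1) and 4 fell (SOX2, TP63, MIR205HG and ZNF750), against 31.4% and 31.7% of 13907 genes. The counts with the single inhibitors, and the count of rises with both, are near these background shares or below them. With only 9 genes, none of these counts, nor the 4 that fell with both, is a result about the group by itself. In bulk RNA, fewer cells with a gene on and less RNA per cell cannot be told apart. The 3 inhibitor comparisons share the vehicle library.

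With Dox in the shLSD1 line, 4 genes rose (SOX2, GRHL3, TFAP2A and PITX1) and 1 fell (ZNF750), against 24.8% and 12.3% of 12970 genes tested. With Dox in the shG9a line, 1 rose (SOX2) and 3 fell (KLF4, KLF5 and GRHL3), against 32.9% and 17.6% of 13080 genes. In these comparisons the middle of the distribution lay above 0, with a median log2 fold change of 0.11 in the shLSD1 line and 0.14 in the shG9a line over genes that reached 5 FPKM in both libraries. Centred on that median, 2 of the 9 genes rose (SOX2 and PITX1) and 4 fell (TP63, KLF4, KLF5 and ZNF750) in the shLSD1 line, and 1 rose and 6 fell (TP63, KLF4, KLF5, GRHL3, TFAP2A and PITX1) in the shG9a line. With the same centring, 17.0% of all genes tested rose and 16.6% fell in the shLSD1 line. In the shG9a line 22.5% rose and 22.5% fell. Over all genes, the share of calls that were increases moved with centring from 66.8% to 50.7% in the shLSD1 line and from 65.2% to 50.03% in the shG9a line. The Dox counts, drawn from 9 genes, are likewise no result about the group by themselves. All changes below are given uncentred.

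Over the 9 genes, the median log2 fold change was 0.10 with SP2509, -0.24 with UNC0642, -0.13 with both inhibitors, 0.29 in the shLSD1 line and -0.34 in the shG9a line. The corresponding medians over all genes tested were -0.21, -0.01, -0.02, 0.13 and 0.18. SOX2 was the gene called in all 5 comparisons, MIR205HG, KLF4 and GRHL3 were called in 3 each, TP63, ZNF750, TFAP2A and PITX1 in 2 each, and KLF5 in 1. The range of change over the 5 comparisons was widest for SOX2, at 6.39 log2 units, and narrowest for TFAP2A, at 0.65.

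**Figure D1:**
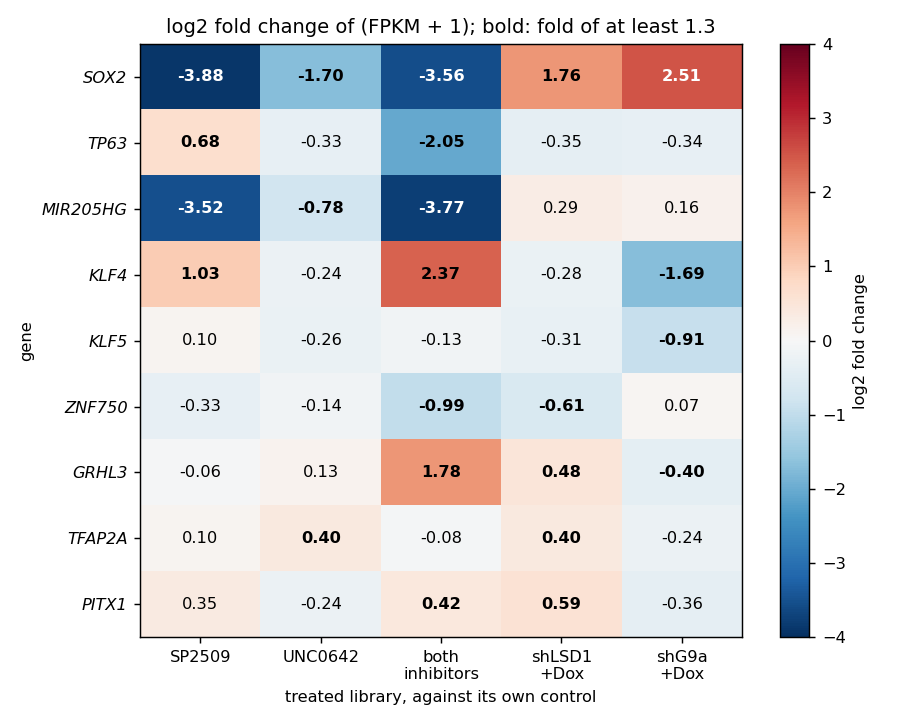
The log2 fold change of (FPKM + 1) of each of the 9 genes (rows) in each treated library against its own control (columns), printed in each cell and colored from blue (lower) to red (higher); bold values reach a fold of 1.3. SOX2 is strongly negative in the 3 inhibitor columns (-3.88, -1.70 and -3.56) and positive in both Dox columns (1.76 and 2.51).

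SOX2 (ENSG00000181449, chromosome 3, 181711924 to 181714436, plus strand) is a single-exon gene for an HMG-box factor that acts with p63 in squamous carcinoma. It had 18.3 FPKM with vehicle, 0.313 after SP2509, 4.94 after UNC0642 and 0.636 after both inhibitors. In the knockdown table it had 5.24 FPKM in the shLSD1 line without Dox and 20.1 with it, and 5.99 FPKM in the shG9a line without Dox and 38.8 with it. All 3 inhibitor libraries were below vehicle, whereas both Dox libraries were above their uninduced lines. Relative to vehicle, SOX2 was 58.5-fold lower with SP2509 (34.7 to 108; 14 against 721 reads), 3.71-fold lower with UNC0642 (3.19 to 4.33) and 28.8-fold lower with both (19.6 to 43.98; 27 reads). With Dox it was 3.83-fold higher in the shLSD1 line (3.31 to 4.44) and 6.47-fold higher in the shG9a line (5.66 to 7.43). Among all genes tested, ranked on the log2 (FPKM + 1) scale, its change was the 4th lowest of 13342 with SP2509, the 73rd lowest of 13244 with UNC0642 and the 2nd lowest of 13907 with both. Its increase was the 55th highest of 12970 in the shLSD1 line and the 8th highest of 13080 in the shG9a line.

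The direction of SOX2 therefore differed between the inhibitor and the hairpin of the same enzyme, and these calls kept their direction under every scaling, pseudocount, threshold and control tried. Between both inhibitors and SP2509 alone, SOX2 differed by 2.03-fold (1.03 to 4.20), a ratio that rests on 27 and 14 reads. The uninduced shLSD1 and shG9a lines were close in SOX2, with a ratio of 1.14 (0.952 to 1.37), and vehicle was 3.26 times their mean. The 2 tables were made separately, so this last ratio compares levels across tables. SOX2-OT, the noncoding transcript that overlaps SOX2 on the same strand, was at most 0.0699 FPKM in every library. Of the 3 genes of the tables that overlap SOX2 or start within 500 kb of it, 0 reached 1 FPKM.

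TP63 (ENSG00000073282, chromosome 3, 189631416 to 189897279, plus strand) encodes p63. Its level was 79.1 FPKM with vehicle, 127 after SP2509, 62.6 after UNC0642 and 18.3 after both inhibitors. Without and with Dox it was 41.9 and 32.6 FPKM in the shLSD1 line, and 40.5 and 31.8 FPKM in the shG9a line. The library with SP2509 alone was thus the highest of the 8 and the library with both inhibitors the lowest. TP63 rose 1.61-fold with SP2509 (1.57 to 1.65) and was 4.32-fold lower with both than with vehicle (4.12 to 4.52), the 106th lowest change of 13907 genes. The log2 changes of -0.33 with UNC0642, -0.35 in the shLSD1 line and -0.34 in the shG9a line did not reach the threshold. Gene-level values do not separate the TAp63 and ΔNp63 transcripts, which start at different promoters. MIR944, a microRNA gene inside TP63, was listed at 0 in 3 of the 4 inhibitor libraries and is so short that its FPKM rests on very few reads.

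MIR205HG (ENSG00000230937, chromosome 1, 209428820 to 209432838, plus strand) had 51.1 FPKM with vehicle, 3.53 after SP2509, 29.4 after UNC0642 and 2.81 after both inhibitors. It had 22.2 and 27.3 FPKM without and with Dox in the shLSD1 line, and 25.3 and 28.5 FPKM in the shG9a line. The fall was common to the 3 inhibitor libraries, and no Dox library lay below its control. MIR205HG was 14.5-fold lower with SP2509 (12.6 to 16.7), 1.74-fold lower with UNC0642 (1.64 to 1.85) and 18.2-fold lower with both (15.5 to 21.4). Of all genes tested, this was the 10th lowest change with SP2509 and the lowest with both on the log2 (FPKM + 1) scale. By the ratio of FPKM, and with pseudocounts of 0.1 and 0.01, SOX2 was lower with both than MIR205HG (log2 changes of -4.64 and -4.83 against -4.14 and -4.18). In the Dox comparisons the log2 changes of 0.29 and 0.16 did not reach the threshold.

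The miR-205 gene itself, MIR205 (ENSG00000284485), which carries the 2 arms printed above, is listed separately and lies inside MIR205HG on the same strand, so its reads and those of its host could be shared. MIR205 was at 15.1 FPKM with vehicle, 8.64 with UNC0642 and 0.539 with both inhibitors, and was listed at 0 with SP2509. In the shLSD1 line it was at 3.07 FPKM without and 7.79 with Dox, and in the shG9a line at 4.95 and 8.92 FPKM. MIR205 is so short that these levels rest on 0 to 26 estimated reads per library, with 26 reads for vehicle and 1 read for both inhibitors. Libraries of this kind do not measure mature miR-205.

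**Figure D2:**
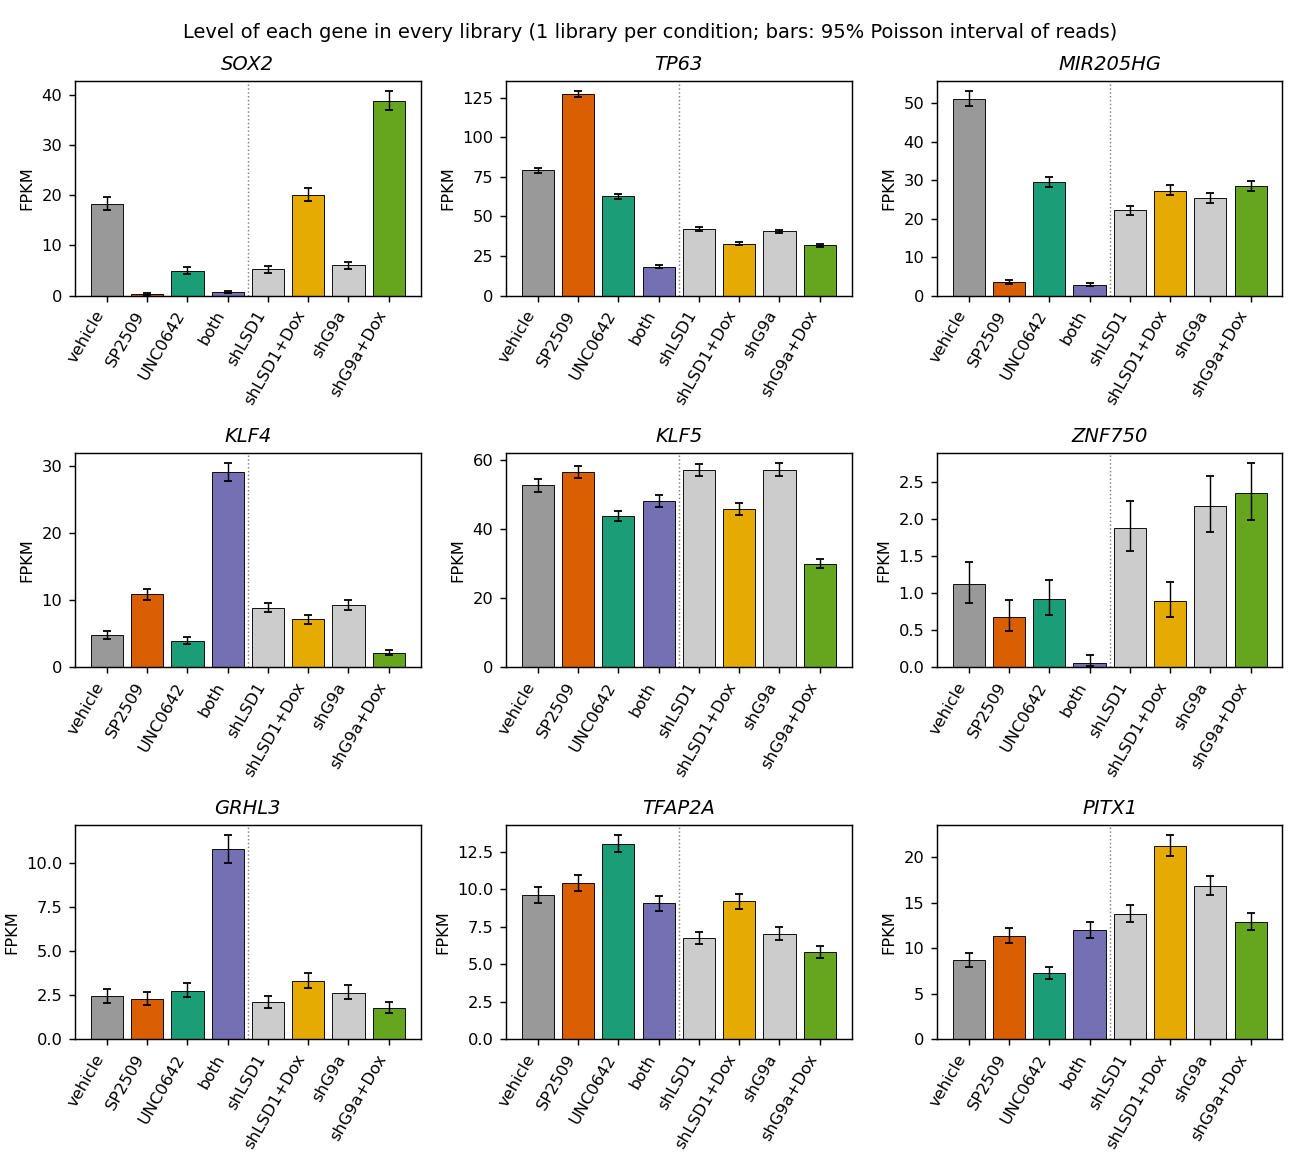
FPKM of each of the 9 genes in the 8 libraries, 1 bar per library, with the inhibitor table left of the dotted line and the knockdown table right of it; error bars are 95% Poisson intervals of the estimated reads and do not show variation between cultures. SOX2 and MIR205HG are near 0 with SP2509 and with both inhibitors, TP63 is highest with SP2509 (127 FPKM) and lowest with both (18.3 FPKM), and KLF4 (29.0 FPKM) and GRHL3 (10.8 FPKM) are highest with both.

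KLF4 (ENSG00000136826, chromosome 9, 107484852 to 107490482, minus strand) encodes a zinc finger factor needed for barrier formation in suprabasal cells. Its level was 4.82 FPKM with vehicle, 10.9 after SP2509, 3.94 after UNC0642 and 29.0 after both inhibitors. The shLSD1 line had 8.90 FPKM without and 7.16 with Dox, and the shG9a line 9.27 and 2.18 FPKM. KLF4 was 2.26-fold higher with SP2509 than with vehicle (1.96 to 2.61) and 6.03-fold higher with both (5.31 to 6.87), the 222nd highest change of 13907 genes. In the shG9a line it was 4.26-fold lower with Dox (3.53 to 5.17), the 243rd lowest change of 13080. UNC0642 alone and Dox in the shLSD1 line gave log2 changes of -0.24 and -0.28, short of the threshold.

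GRHL3 (ENSG00000158055, chromosome 1, 24319322 to 24364482, plus strand) encodes a grainyhead factor of the terminal differentiation program. It had 2.43 FPKM with vehicle, 2.30 after SP2509, 2.75 after UNC0642 and 10.8 after both inhibitors. Its ratio to vehicle was 0.944 with SP2509 (0.751 to 1.19) and 1.13 with UNC0642 (0.910 to 1.41), and with both it was 4.44-fold higher (3.71 to 5.32), the 511th highest change. With Dox it rose in the shLSD1 line from 2.09 to 3.32 FPKM, by 1.59-fold (1.29 to 1.97), and fell in the shG9a line from 2.64 to 1.76 FPKM, by 1.501-fold (1.18 to 1.91). Neither Dox call held with the mean of both uninduced lines as the control, with a minimum of 5 FPKM or with a fold threshold of 2. The call in the shLSD1 line was also lost on centring. STPG1, on the opposite strand over GRHL3, had 1.46 FPKM with vehicle and 3.10 with both inhibitors and also rose. The sources used here do not say whether counting used strand, so reads of the 2 genes cannot be told apart where they overlap.

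ZNF750 (ENSG00000141579, chromosome 17, 82829435 to 82840578, minus strand), a differentiation factor downstream of p63 that is often mutated in ESCC, ranked 7th to 9th of the 9 genes by level in every library. It had 1.12 FPKM with vehicle, 0.681 after SP2509, 0.918 after UNC0642 and 0.0638 after both inhibitors, the last from 4 reads against 65 with vehicle. That is 17.5-fold lower with both, with a wide counting interval of 6.52 to 66.2. With Dox it fell in the shLSD1 line from 1.88 to 0.892 FPKM, by 2.11-fold (1.53 to 2.93), whereas the shG9a line had 2.18 FPKM without and 2.35 with Dox. With SP2509 the ratio of 1.64-fold lower (1.11 to 2.46) came to a log2 change of -0.33 with the pseudocount of 1 and was not called. TBCD, on the opposite strand over ZNF750, had 3.78 FPKM with vehicle, 2.07 after SP2509 and 1.61 with both inhibitors, and its reads could be shared with ZNF750.

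KLF4 and GRHL3 thus rose with both inhibitors while ZNF750 fell, although all 3 are placed in the later differentiation program. In the shG9a line KLF4 and GRHL3 fell with Dox, and ZNF750 was not called.

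KLF5 (ENSG00000102554, chromosome 13, 73054976 to 73077542, plus strand), which supports proliferation of basal keratinocytes, changed over a range of 1.01 log2 units. It had 52.6 FPKM with vehicle, 56.5 after SP2509, 43.8 after UNC0642 and 48.2 after both inhibitors, and was called in none of the 3 comparisons with vehicle. It had 57.1 and 45.8 FPKM without and with Dox in the shLSD1 line, and 57.2 and 30.0 FPKM in the shG9a line. The last of these, 1.91-fold lower (1.81 to 2.02), was its one call.

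TFAP2A (ENSG00000137203, chromosome 6, 10393186 to 10419659, minus strand) had 9.60 FPKM with vehicle, 10.4 after SP2509, 13.0 after UNC0642 and 9.05 after both inhibitors. The shLSD1 line had 6.75 FPKM without and 9.20 with Dox, and the shG9a line 7.04 and 5.79 FPKM. TFAP2A rose 1.36-fold with UNC0642 (1.26 to 1.46) and 1.36-fold in the shLSD1 line (1.25 to 1.48), both close to the threshold, and the second was lost on centring, with upper-quartile scaling and with the mean of both uninduced lines as the control. The antisense genes TFAP2A-AS1 and TFAP2A-AS2 were below 1 FPKM in every library in which they are listed.

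PITX1 (ENSG00000069011, chromosome 5, 135027735 to 135034813, minus strand), a homeobox factor of oral and other ectodermal epithelia, had 8.69 FPKM with vehicle, 11.3 after SP2509, 7.23 after UNC0642 and 11.98 after both inhibitors. With Dox it rose in the shLSD1 line from 13.8 to 21.3 FPKM, by 1.54-fold (1.41 to 1.68), and in the shG9a line it had 16.9 FPKM without and 12.9 with Dox. With both inhibitors it was 1.38-fold higher than with vehicle (1.23 to 1.55), a call lost with upper-quartile scaling. The SP2509 value lay just under the threshold, at a log2 change of 0.35, and was called once the values were centred or scaled by the upper quartile. The overlapping genes C5orf66 and AC008406.3 were below 1 FPKM in every library.

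Ordered by level, TP63 was the most abundant of the 9 genes in the vehicle, SP2509 and UNC0642 libraries. KLF5 was highest with both inhibitors, in both uninduced lines and in the shLSD1 line with Dox, and SOX2 was highest in the shG9a line with Dox. SOX2 was 4th with vehicle and last with SP2509. KLF4 moved from 7th with vehicle to 2nd with both inhibitors. ZNF750 was last in 6 of the 8 libraries.

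The library with both inhibitors was also set against each inhibitor alone and against the sum of the log2 changes of the single inhibitors. The dose of each compound in the combination is not stated. A departure from the sum and a difference in dose therefore cannot be told apart. On the (FPKM + 1) scale, TP63 had single changes that sum to 0.34 and a change with both of -2.05, a difference of -2.39. It was 6.93-fold lower with both than with SP2509 alone. KLF4 and GRHL3 exceeded the sum by 1.57 and 1.71, and were 2.67-fold (2.44 to 2.91) and 4.70-fold (3.95 to 5.61) higher with both than with SP2509. MIR205HG had a sum of -4.30 and a change with both of -3.77. KLF5 differed from the sum by 0.04, TFAP2A by -0.58 and PITX1 by 0.31.

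The pseudocount limits this comparison for SOX2 and ZNF750. From its vehicle level SOX2 cannot fall below -4.27 on the (FPKM + 1) scale, so its sum of -5.58 could not have been reached and its change of -3.56 with both is not read against it. ZNF750 cannot fall below -1.08, and its change with both was -0.99. The differences were therefore also computed from FPKM ratios without a pseudocount, an alternative chosen after seeing the data, and each is given with its counting SE. On that scale the difference was 2.92 for SOX2 (SE 0.48) and -3.13 for ZNF750 (SE 0.76), the latter from the 4 reads with both inhibitors. It was -2.45 for TP63 (SE 0.04), 0.47 for MIR205HG (SE 0.15), 1.70 for KLF4 (SE 0.14) and 2.05 for GRHL3 (SE 0.20). KLF5 differed by 0.04 (SE 0.05), TFAP2A by -0.64 (SE 0.08) and PITX1 by 0.35 (SE 0.12). All of these values share the vehicle library, and none has a replicate check.

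**Figure D3:**
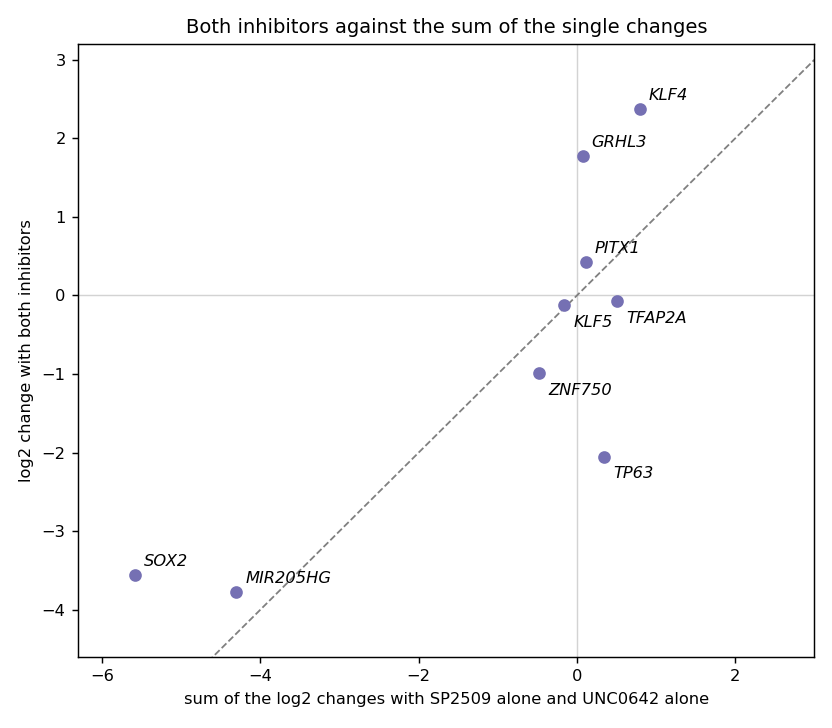
The log2 fold change of each of the 9 genes with both inhibitors (y axis) against the sum of its changes with SP2509 alone and UNC0642 alone (x axis), all relative to vehicle and on the (FPKM + 1) scale; the dashed line marks equality. TP63 lies below the line (-2.39), and KLF4 and GRHL3 lie 1.57 and 1.71 above it. The places of SOX2 and ZNF750 are set in part by the pseudocount, which allows no change below -4.27 and -1.08 for them. The dose of each compound in the combination is not stated.

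Between vehicle and the uninduced lines, levels of several of these genes already lay apart. SOX2, TP63 and MIR205HG were higher with vehicle, at 3.26, 1.92 and 2.15 times the mean of the uninduced lines. KLF4, ZNF750 and PITX1 were lower with vehicle, with the lines at 1.89, 1.82 and 1.76 times its level. The 2 uninduced lines were close to each other, with ratios of the shG9a to the shLSD1 line between 0.966 for TP63 and 1.26 for GRHL3. Levels set across the 2 tables also carry the difference in how each table was made, and its part was not tested.

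Genes that overlap one of the 9 genes or start within 500 kb of it were counted as neighbors, 136 in all. With SP2509, 11 of the 49 tested rose and 19 fell (22.4% and 38.8%, against 21.0% and 39.9% of all genes tested). With UNC0642, 9 of 51 rose and 7 fell (17.6% and 13.7%, against 18.2% and 16.9%), and with both inhibitors 17 of 49 rose and 14 fell (34.7% and 28.6%, against 31.4% and 31.7%). With Dox in the shLSD1 line, 12 of 48 rose and 3 fell (25.0% and 6.25%, against 24.8% and 12.3%). In the shG9a line 20 of 48 rose and 7 fell (41.7% and 14.6%, against 32.9% and 17.6%). With the inhibitors these shares are near the background and are no result about the neighbors. The rises in the shLSD1 line and the falls in the shG9a line are near it too. The other Dox shares come from 48 genes, were not tested and are likewise no result about the neighbors.

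By the root mean square difference over the 5 log2 changes, computed against 7013 genes, the pattern closest to SOX2 was that of MIR205 (0.95), whose values rest on the few reads given above, followed by HOXC13-AS (1.06). MIR205HG lay closest to MIR205 (0.53), with which it overlaps, and then to LINC01843 (0.87). TP63 was matched by PTPRK and KTN1 (0.29 each), KLF4 by CD55 (0.34) and EMP1 (0.40), and GRHL3 by PPP1R15B (0.19) and KCTD5 (0.23). KLF5 (TRAM1, 0.097, and NEURL1B, 0.116), ZNF750 (PSIP1, 0.117, and AGBL5, 0.161), TFAP2A (CPD, 0.101, and CLSTN3, 0.106) and PITX1 (HMGN1P38, 0.179, and CCDC50, 0.206) had closer matches, and their own changes were smaller. Among the 9 genes, TFAP2A and PITX1 were the closest pair (0.39).

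A list of 30 other transcription factors of squamous and simple epithelia was counted beside the 9 genes. With SP2509, 9 of the 25 tested rose and 10 fell, where 21.0% and 39.9% of all genes tested did so, and the median log2 fold change was -0.21, as over all genes (-0.21). With UNC0642, 7 of 24 rose and 5 fell (18.2% and 16.9% of all genes), with a median of -0.06 against -0.01. With both, 10 of 25 rose and 8 fell (31.4% and 31.7% of all genes), with a median of 0.14 against -0.02. With Dox in the shLSD1 line, 8 of 26 rose and 11 fell (24.8% and 12.3% of all genes), with a median of -0.01 against 0.13. In the shG9a line, 7 of 25 rose and 12 fell (32.9% and 17.6% of all genes), with a median of -0.37 against 0.18. The widest range belonged to FOSL1, an AP-1 subunit. FOSL1 had 6.19 FPKM with vehicle, 132 after SP2509, 78.9 after UNC0642 and 148 after both inhibitors, and with Dox it fell in the shLSD1 line (39.3 to 5.33 FPKM) and in the shG9a line (32.1 to 1.07 FPKM). In all 5 comparisons FOSL1 therefore moved opposite to SOX2, and so did KLF6 of this list and IVL and KRT17 of the others. FOSL1 and KLF6 were named for a wide range, a choice that favors genes moving in opposite directions in the 2 tables. KLF6, a KLF family factor, had 4.78 FPKM with vehicle, 39.4 after SP2509, 11.8 after UNC0642 and 12.4 after both, and fell with Dox in both lines. DLX3, a homeobox factor of differentiating keratinocytes, moved the other way, from 12.8 FPKM with vehicle to 1.22, 1.96 and 4.01 FPKM, and rose with Dox from 3.11 to 4.50 and from 3.43 to 7.997 FPKM. PRDM1, a repressor in terminally differentiating cells, went from 1.51 to 5.94 FPKM with both inhibitors and from 2.73 to 0.154 FPKM with Dox in the shG9a line.

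Of 24 basal genes known as targets of p63 or SOX2, 15 of the 23 tested rose and 5 fell with SP2509 (21.0% and 39.9% of all genes tested), with a median log2 fold change of 0.83 against -0.21 over all genes. With both inhibitors, 6 of 23 rose and 14 fell (31.4% and 31.7% of all genes), with a median of -0.82 against -0.02. TP63 itself rose with SP2509 and fell with both, and SOX2 fell in both libraries. With Dox, TP63 was called in neither line and SOX2 rose in both. A link of these genes to TP63 or SOX2 was not tested, and the list was chosen with earlier results of these data known. With UNC0642, 6 of 23 rose and 7 fell (18.2% and 16.9% of all genes), with a median of 0.05 against -0.01. In the shLSD1 line 2 of 23 rose and 10 fell (24.8% and 12.3% of all genes), with a median of -0.36 against 0.13, and in the shG9a line 7 of 24 rose and 9 fell (32.9% and 17.6% of all genes), with a median of -0.12 against 0.18. DST, which encodes a plakin of the hemidesmosome, had 16.6 FPKM with vehicle, 59.2 after SP2509 and 4.72 with both inhibitors. COL17A1, a hemidesmosomal collagen, had 12.9 FPKM with vehicle, 92.3 after SP2509 and 32.9 with both, so it did not follow DST in the last library. JAG1, a Notch ligand, had 12.5 FPKM with vehicle, 63.1 after SP2509 and 10.2 with both. IGFBP3, a binding protein of insulin-like growth factors, rose from 254 to 531 FPKM with SP2509, and with Dox it fell in the shLSD1 line (900 to 277 FPKM) and in the shG9a line (800 to 88.2 FPKM). DST, COL17A1, JAG1 and IGFBP3 were named for a wide range, and all of them rose with SP2509. The 5 basal genes that fell with SP2509 were KRT15, JAG2, FGFR2, FGFR3 and FAT2.

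Of 30 suprabasal and late differentiation genes known as targets of KLF4, ZNF750 or GRHL3, 29 are listed and 13 to 17 reached the minimum level in a comparison. With SP2509, 7 of 14 rose and 2 fell (21.0% and 39.9% of all genes), with a median log2 fold change of 0.41 against -0.21. With UNC0642, 5 of 15 rose and 3 fell (18.2% and 16.9%; median -0.14 against -0.01), and with both 7 of 17 rose and 4 fell (31.4% and 31.7%; median 0.31 against -0.02). The 7 that rose with both (IVL, SPRR1A, SPRR1B, SPRR2A, PADI1, SCEL and ECM1) were below 1 FPKM with vehicle. They reached the minimum only through the treated library, so a fall could not have been called. The 5 that rose with UNC0642 (IVL, SPRR1A, SPRR2A, PADI1 and ECM1) were such genes too. So were IVL, SPRR1A, SCEL and ECM1 with SP2509. The 4 that fell with both (TGM1, KRT4, KRT13 and EVPL) had at least 1 FPKM with vehicle. With Dox in the shLSD1 line, 3 of 13 rose and 5 fell (24.8% and 12.3%; median -0.17 against 0.13), and in the shG9a line 3 of 13 rose and 9 fell (32.9% and 17.6%; median -0.64 against 0.18). Of those that fell with Dox, IVL and SCEL in the shLSD1 line reached the minimum only through the uninduced library. So did IVL, SPRR1B and SCEL in the shG9a line. The largest ranges belonged to cornified envelope genes. SPRR1A had 0.236 FPKM with vehicle, 8.94 after SP2509, 8.90 after UNC0642 and 50.7 after both, and stayed at or below 0.428 FPKM in the knockdown table. SPRR2A was listed at 0 with vehicle and had 0.634, 3.07 and 77.8 FPKM in the same order, although the counting may have divided reads among the near-identical SPRR2 genes. ECM1, which encodes an extracellular matrix protein, had 0.380 FPKM with vehicle, 1.24 after SP2509, 2.01 after UNC0642 and 21.2 after both inhibitors. SPRR1A, SPRR2A and ECM1 were named for a wide range, largely set by the library with both inhibitors. Their peak there follows from that choice. KLF4 and GRHL3 were also highest and ZNF750 lowest in that library, and a link was not tested. IVL, which encodes involucrin, differed from SPRR1A, SPRR2A and ECM1. It had 0.297 FPKM with vehicle and 8.45, 10.4 and 10.3 FPKM in the 3 inhibitor libraries. With Dox it fell in the shLSD1 line (4.55 against 0.637 FPKM) and in the shG9a line (3.65 against 0.322 FPKM).

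**Figure D4:**
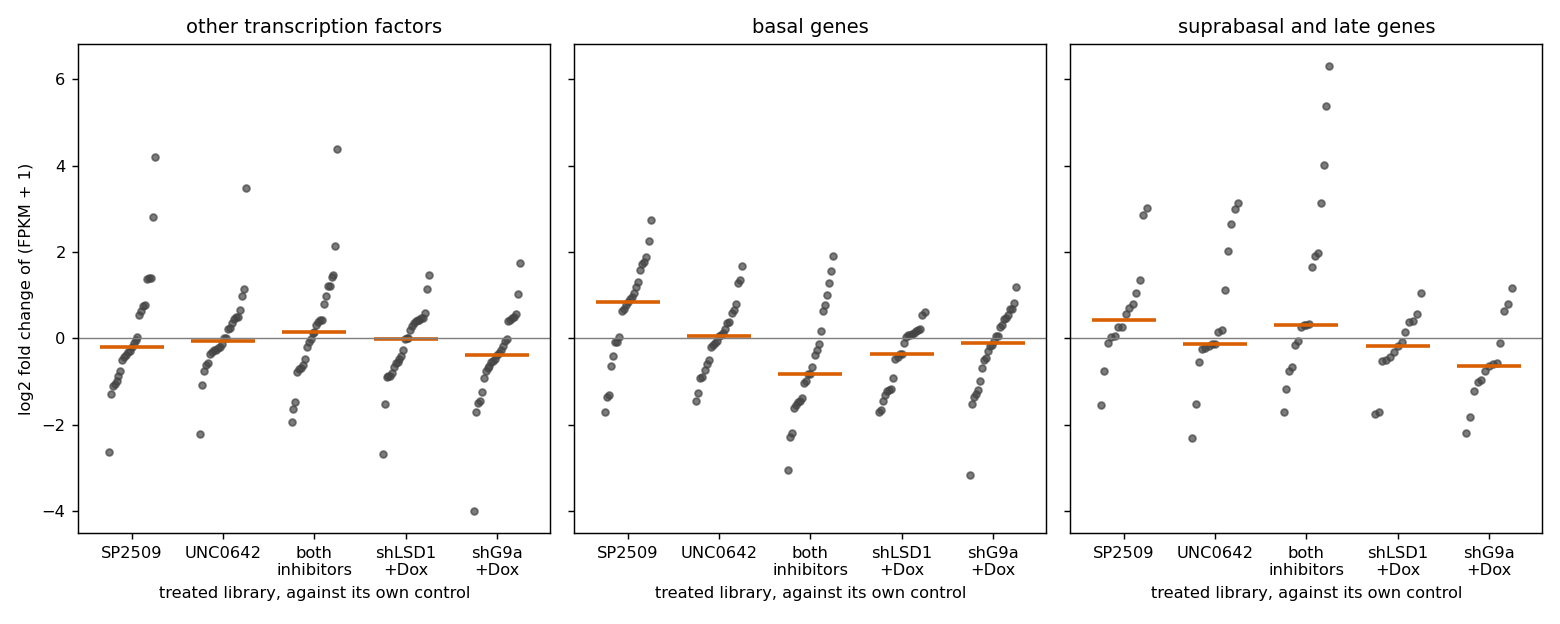
The log2 fold change of (FPKM + 1) of every tested gene (points, ordered by value) of 3 lists, other transcription factors, basal genes and suprabasal and late genes, in each treated library against its own control; orange lines are medians. The median of the basal genes is 0.83 with SP2509 and -0.82 with both inhibitors.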

How the data were processed

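Per the paper's methods, reads were cleaned of poor quality and adapter contamination and aligned against GRCh38.87. The authors deposited FPKM in 2 tables normalized separately, so changes were computed within a table. The aligner, the counting tool and the use of strand are not given in the sources used here. Samples were grouped by their labels.

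Log2 ratios of (FPKM + 1) were computed (Python 3.11.15, pandas 2.3.3) over genes with at least 1 FPKM in either library, and called at the study's fold threshold of 1.3. Its p-value criterion was not applied, since 1 library per condition gives no spread. Library totals were estimated from one-exon genes, whose FPKM times length falls on steps of whole reads, and gene lengths as the smallest that make all values of a gene whole reads (or the GENCODE release 44 length, where that is a multiple up to 4). These reads make up 99.5% to 99.7% of the totals. Intervals are exact (Clopper-Pearson, scipy 1.17.1). The procedure was tested on simulated data.

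The 9 genes and the gene lists were chosen with earlier results of these data known. Named genes are the 9 genes, genes overlapping them, the 4 of each list with the widest range of change, and the 2 closest in pattern to each of the 9 (at least 5 FPKM in a library of each table). VIM, SNAI1, SNAI2, CDH2, KRT17 and the other basal and late genes listed as risen or fallen were named after their values were seen. Alternatives were pseudocounts of 0.1 and 0.01, a minimum of 5 FPKM or none, a 2-fold threshold, centring, upper-quartile scaling, an exact binomial criterion on reads, and the mean of both uninduced lines as control. FPKM ratios without a pseudocount, for the comparison with the sum of the single inhibitors, were added after seeing the data.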

Additional observations from a re-analysis of the deposited data

Results flagged for a closer look

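GRHL3 was called in opposite directions with Dox in the 2 lines, higher in the shLSD1 line (2.09 against 3.32 FPKM) and lower in the shG9a line (2.64 against 1.76 FPKM), and the log2 changes differed by 0.88. The difference was not tested, since each condition has 1 library. The increase in the shLSD1 line was no longer called after centring on the median or with the mean of both uninduced lines as control, and the decrease in the shG9a line was no longer called with that same control. Both calls were also lost with a minimum of 5 FPKM and with a fold threshold of 2.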

How the results depend on the processing

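Of the 198 recomputed changes of single genes, 160 moved by less than their counting interval or not at all, 38 moved by more, and 0 called changes turned direction; 4 uncalled values near 0 changed sign (GRHL3 with SP2509 and ZNF750 in the shG9a line, each under centring and under upper-quartile scaling). Of 42 recomputed counts of called genes, 36 stayed within 1.5 times the reported count. A fold threshold of 2 left 1 of the 9 genes with UNC0642 (SOX2), 1 in the shLSD1 line (SOX2) and 2 in the shG9a line (SOX2 and KLF4), against 3, 5 and 4. In the shLSD1 line, a minimum of 5 FPKM left 3 genes and the mean of both uninduced lines as control left 3. In the shG9a line, centring gave 7. Shares of all genes called at the fold threshold of 2, the minimum of 5 FPKM and that control are not given here. The counts at these settings are therefore not read as results about the group. The exact binomial criterion on reads changed no call. Pseudocounts of 0.1 and 0.01 added ZNF750 and PITX1 with SP2509, and PITX1 in the shG9a line. Depth limits ZNF750 most, with 4 to 151 reads per library, and SOX2 with SP2509 and with both inhibitors (14 and 27 reads). Of the differences from the sum of the single inhibitors, 8 of 9 moved by less than their counting interval without a pseudocount, an alternative chosen after seeing the data, and ZNF750 moved from -0.52 to -3.13. No paired analysis was possible because each condition has 1 library and no result comes from a test.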
